A study of Mus musculus with 8 samples.

Results

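The subject is the non-additive part of the GFP effect in newborn bone marrow stroma, that is, the extent to which the difference between GFP+ and GFP- cells depends on surface Pdgfrα. For each gene the log2 difference between GFP+ and GFP- cells was taken within Pdgfrα+ cells and within Pdgfrα- cells, and the latter was subtracted from the former. This difference of differences is called the interaction. All genes of the table were members, 15880 of 15880, over all 8 of its 8 libraries. The table itself holds only genes that passed the authors' filter on low counts. By the same arithmetic, the interaction is the Pdgfrα effect in GFP+ cells minus that in GFP- cells.

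The study asked which embryonic tissues supply the stem cells of marrow stroma, and used a nestin reporter to sort them. The mice were *Nes-Gfp* heterozygous pups on a C57BL/6 background, taken on postnatal day 1 without treatment, and their GFP is under nestin regulatory elements, so it marks the activity of a transgene. Cells negative for CD45, CD31 and Ter119 were sorted by GFP and Pdgfrα into 4 populations with 2 libraries each. Long bones and sterna of 3 pups were pooled for a library, 15000 to 80000 cells were sorted, and the cDNA was amplified. The populations are called double-negative (DN, GFP- Pdgfrα-), GFP single-positive (GSP, GFP+ Pdgfrα-), Pdgfrα single-positive (PSP, GFP- Pdgfrα+) and double-positive (DP, GFP+ Pdgfrα+) cells, and they share genotype, strain and age. Values are given as library 1 and library 2 of each.

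Nestin is an intermediate filament protein of many immature cells, among them neural, muscle and perivascular ones. Pdgfrα is a receptor tyrosine kinase for platelet-derived growth factors and marks much of the mesenchyme that forms bone, tendon and connective tissue. Precursors of muscle and of Schwann cells, and the mural cells around vessels, are among the cells that can carry a nestin reporter without Pdgfrα.

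Reads on genes numbered 4058258 and 5302762 in the double-negative libraries, 3644103 and 3427644 in the GFP single-positive, 3869275 and 3221217 in the Pdgfrα single-positive, and 3564158 and 3329432 in the double-positive libraries. A level is the gene's normalized value, that is, reads plus 0.5, over the effective size of the library, on a scale of 1e6. At this depth 3 reads correspond to 0.825 to 1.04, and a level under that is treated as at the floor and no fold is given against it. A fitted log2 difference that involves such a population depends on the pseudocount and is no bound. Below, with at least 1 library of a compared population at or under the floor, this concerns *Psd4*, *Dcx*, *Mstn*, *Ntn1*, *Scx*, *Tbx15*, *Hoxd11*, *Hoxc6*, *Bglap2*, *Mmp9*, *Acp5*, *Cilp2*, *Gpr64*, *Slc13a5*, *Fgfr4*, *Bmp4* and *Kcnn3*. The same holds for *Art4*, *Tmem30b*, *Hoxa13* and *Tal1*, whose calls also involve such libraries. Amplified reads are not independent molecules, so the floor covers counting error only. The kit kept no strand, so reads of genes with overlapping exons on opposite strands cannot be told apart. Such genes are pointed out, beside *Psmd1*, *Col15a1*, *Notch3* and *Fgfr1*, for which this is not repeated.

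The double-negative libraries stood apart from the other 6. Mitochondrial transcripts made up 36.9% and 39.1% of their reads, against 24.2% and 22.2% in GFP single-positive, 14.4% and 14.5% in Pdgfrα single-positive and 13.0% and 13.7% in double-positive cells. They had more than 3 reads for 12056 and 12617 genes, against 13777 to 14061 in the others. Red cell genes were abundant in them although Ter119, a surface antigen of the red cell lineage, was used to remove such cells. The summed level of the 22 erythroid genes in the table was 19902 and 28056 (DN), 306 and 201 (GSP), 131 and 117 (PSP) and 114 and 118 (DP), with *Hbb-b1* the most abundant, and a further 6 of the list are not in the table. The double-negative libraries thus lay far above all others, which did not overlap with them. In such bulk samples, a smaller share of cells of a type and less RNA per cell cannot be told apart. The part of such cells in the results that follow was not tested.

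The genes behind the sort behaved as the labels say in part. The level of *Pdgfra* (ENSMUSG00000029231, chromosome 5, 75548316 to 75594229, plus strand) was 3.30 and 4.36 (DN), 18.1 and 10.4 (GSP), 839 and 794 (PSP) and 733 and 754 (DP). It was high in all 4 Pdgfrα+ libraries and low in all 4 others, with the GFP single-positive libraries above the double-negative ones. *Nes* (ENSMUSG00000004891, chromosome 3, 87775000 to 87784373, plus strand), the endogenous nestin gene, stood at 3.59 and 9.08 (DN), 149 and 176 (GSP), 27.4 and 47.1 (PSP) and 57.6 and 72.0 (DP). It was highest in GFP single-positive cells, and the GFP+ libraries lay above the GFP- ones within each Pdgfrα fraction without overlap. The *Nes* difference passed the test in Pdgfrα- cells, at 4.58 (adjusted p = 3.13e-07, limma), and not in Pdgfrα+ cells, at 0.82 (adjusted p = 0.213, limma), and the interaction was -3.76 (standard error 0.48, adjusted p = 5.72e-05, limma). *Ptprc*, which encodes CD45, was at 11.3 and 6.72 (DN), 1.34 and 0.9004 (GSP), 0.126 and 0.148 (PSP) and 0.690 and 1.58 (DP). *Pecam1*, which encodes CD31, was at 12.8 and 27.9 (DN), 4.25 and 18.1 (GSP), 3.91 and 4.01 (PSP) and 4.005 and 9.06 (DP). *Ptprc* was highest in double-negative cells, whereas the *Pecam1* libraries overlapped between populations.

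The interaction was called for 7031 of 15880 genes, or 44.3%, at an adjusted p of at most 0.05 in limma with Benjamini–Hochberg adjustment over all genes. It was positive, so that the GFP effect was the more positive in Pdgfrα+ cells, for 3032 genes (19.1%), and negative for 3999 (25.2%). A GFP effect was called in Pdgfrα+ cells for 849 genes (5.35%), 511 higher (3.22%) and 338 lower (2.13%) in double-positive cells. In Pdgfrα- cells it was called for 8527 genes (53.7%), 4787 higher (30.1%) and 3740 lower (23.6%) in GFP single-positive cells. Over all genes the median was -0.16 for the interaction, 0.00 for the effect in Pdgfrα+ cells and 0.15 for that in Pdgfrα- cells. The median standard error of an interaction was 0.49, the smallest interaction called was 0.43 in size, and the median size of those called was 2.03. Permuting 2 libraries against 2 exactly could give no two-sided p below 0.333. What these p-values measure is the spread between pools, which limma shares across genes. Those pools also differed in sex, with *Xist* 119-fold to 299-fold higher in library 2 of each population.

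The GFP effect was mostly the larger of the pair in Pdgfrα- cells, although the interaction itself is a difference that belongs to neither fraction. Among called interactions, 6502 (92.5%) had the larger GFP effect in Pdgfrα- cells, against 77.1% of all genes. In 6584 (93.6%), double-negative cells were the highest or the lowest of the 4 populations, against 80.9% of all genes. Of the 849 genes with a called effect in Pdgfrα+ cells, 641 (75.5%) had a called interaction. A fit chosen after seeing the data left out both double-negative libraries and called 1126 genes in Pdgfrα+ cells, 593 higher and 533 lower, 804 of them shared with the fit of all libraries.

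Called interactions fell into patterns by the calls of the 2 GFP effects. In 316 genes the effects were called in opposite directions. In 170 an effect was called in Pdgfrα+ cells and not in Pdgfrα- cells, and in 6044 the reverse. In 155 both effects were called with the same sign and differed in size, in 346 neither was called alone, and the remaining 8849 genes had no called interaction. The opposite pattern held 135 genes that were higher with GFP in Pdgfrα+ cells and lower in Pdgfrα- cells, with a median interaction of 3.23, and 181 of the reverse kind, with a median of -3.71. The 2 restricted patterns contain the interaction test, but an effect that was not called is not an effect of 0. Its 95% interval lay within 1 log2 unit of 0 for 72 of the 170 genes restricted to Pdgfrα+ cells and for 3467 of the 6044 restricted to Pdgfrα- cells.

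**Figure D1:**
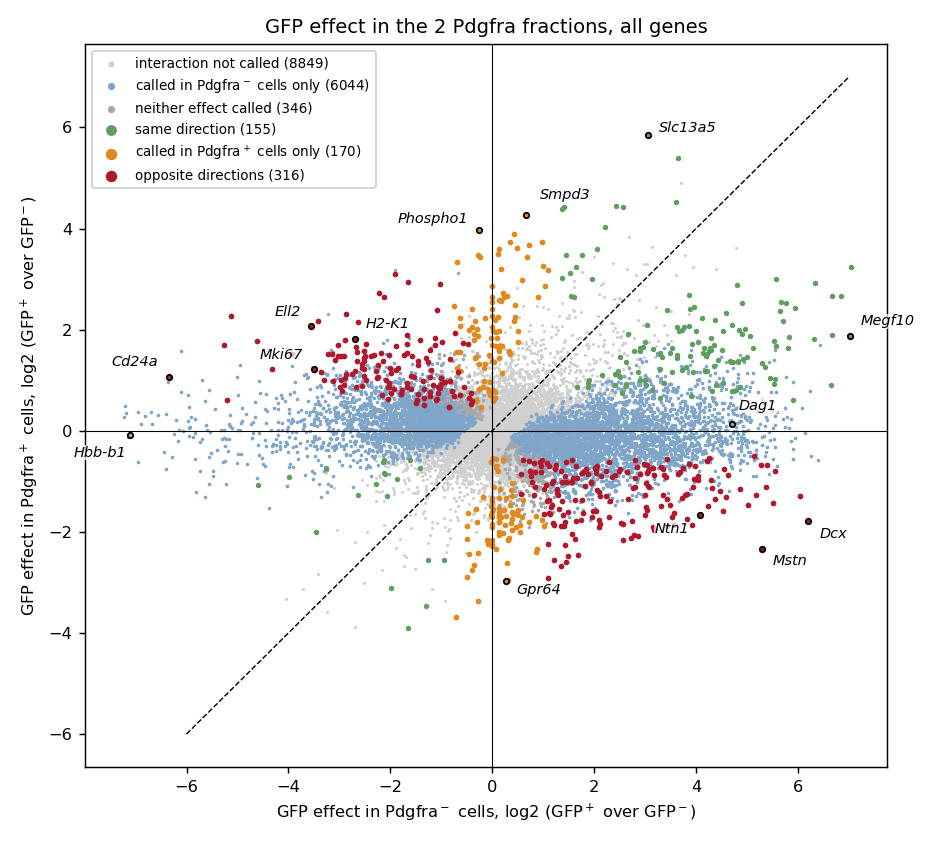
The GFP effect of each of the 15880 genes in Pdgfrα- cells (horizontal axis) and in Pdgfrα+ cells (vertical axis), as log2 of GFP+ over GFP- cells, coloured by pattern. Most of the 7031 called interactions spread along the horizontal axis, and the 316 opposite genes lie in the upper left and lower right quadrants.

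Counts that need a call in Pdgfrα+ cells changed when a library was left out, which also removes a replicate, so a lost call is not a lost effect. Opposite effects numbered 95 and 65 without PSP library 1 and library 2, 94 and 170 without DP library 1 and library 2, and 201 without GSP library 2. The 135 that were higher with GFP in Pdgfrα+ cells became 61, 28, 34, 86 and 80 without PSP library 1, PSP library 2, DP library 1, GSP library 1 and GSP library 2. The 181 that were lower became 34, 37, 60, 76, 290 and 294 without PSP library 1, PSP library 2, DP library 1, DP library 2, DN library 1 and DN library 2. Genes called in Pdgfrα+ cells numbered 306, 246, 350 and 517 without PSP libraries 1 and 2 and DP libraries 1 and 2. Genes restricted to Pdgfrα+ cells numbered 62, 54 and 93 without the first 3 of these. Genes with effects of the same sign numbered 61, 52, 64 and 95 without these 4, and 103 and 89 without GSP library 1 and library 2. Of the 316 opposite genes, 39 kept their pattern in all 8 fits that each left out 1 library, as did 28 of the 170 restricted to Pdgfrα+ cells and 4056 of the 6044 restricted to Pdgfrα- cells. Under the 12 other alternatives 69, 12 and 2928 of these kept their pattern, and in all fits together 35, 8 and 2751. The fit without double-negative libraries called 290 of the 316 and 160 of the 170 in Pdgfrα+ cells.

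Scaling moved the centre of the interaction. Centring each library on its median shifted the median interaction by 0.43, to 0.27, and called 7416 interactions, of which 4427 (59.7%) were positive, against 43.1% in the values as deposited. Quantile normalization shifted it by 0.25, with 6613 called and 50.0% positive. Removing mitochondrial genes and rescaling each library to the total of its other genes shifted it by -0.15, with 7008 called and 37.5% positive. That rescaling also replaces the deposited normalization. Medians of gene lists below are to be read against -0.16 for all genes, and counts against the 19.1% positive and 25.2% negative of all genes. Of all genes, 1.99% had opposite effects and 0.976% effects of the same sign. Effects were restricted to Pdgfrα+ cells in 1.07% and to Pdgfrα- cells in 38.1%, against which pattern counts are to be read. Of the 45 lists, 5 turned sign under a scaling, and each is named where it appears. Lists are described by counts and medians, and no test of a list was run. Genes that are only listed by pattern were named after their values were seen.

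**Figure D2:**
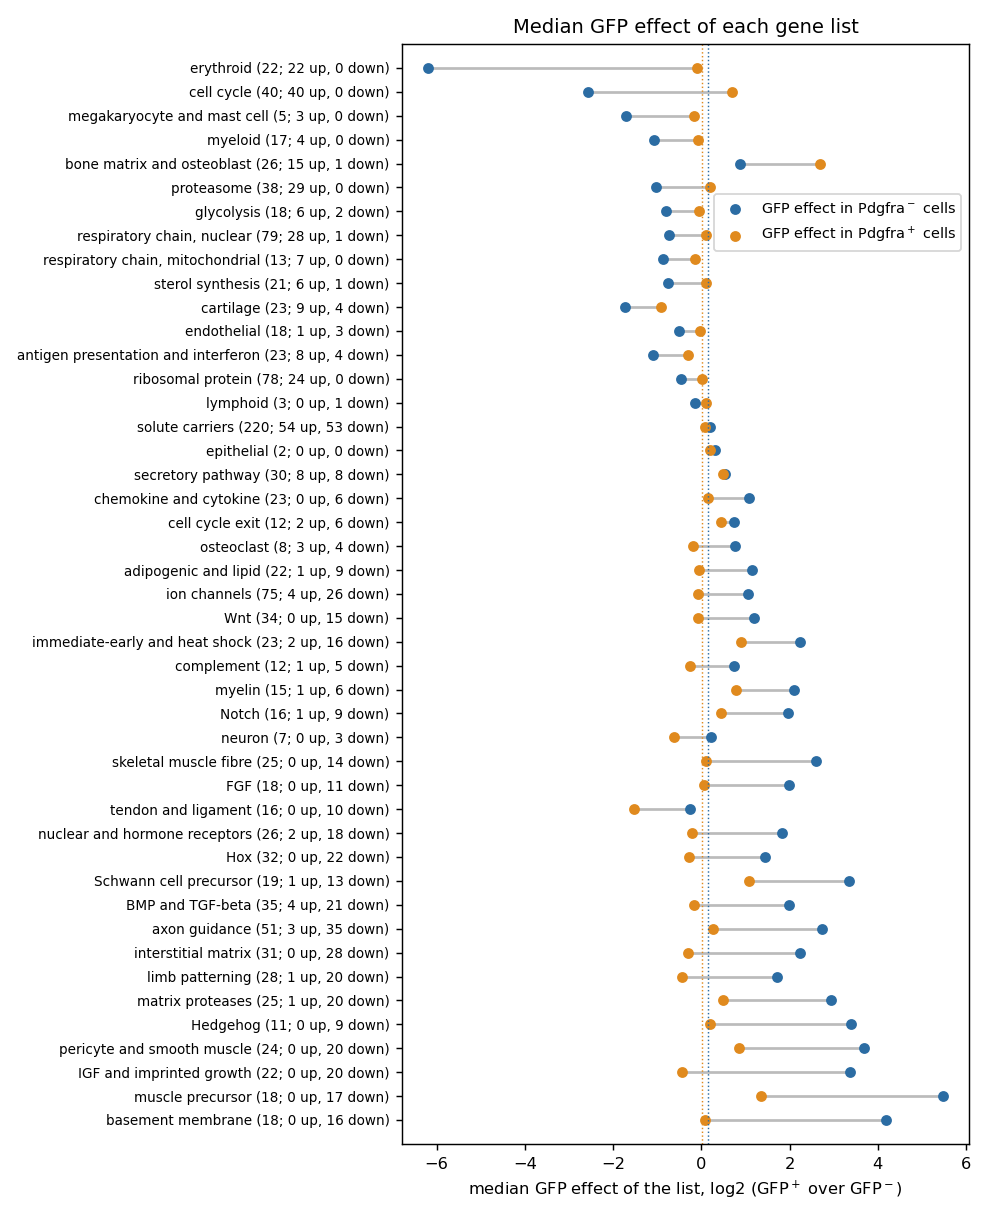
Median GFP effect of each of the 45 gene lists in Pdgfrα- cells (blue) and Pdgfrα+ cells (orange), as log2 of GFP+ over GFP- cells, with the number of members in the table and of called interactions in each direction. Dotted lines mark the medians of all genes, 0.15 and 0.00, and the longest distance is that of the erythroid list, whose median interaction was 6.17.

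Genes of cell division had positive interactions throughout. All 40 of 40 cell cycle genes in the table had a called positive interaction, with a median of 3.36 (0.69 in Pdgfrα+ and -2.57 in Pdgfrα- cells). Effects were opposite in 11 of them (*Bub1*, *Ccna2*, *Ccnb1*, *Cdc20*, *Cenpf*, *Kif11*, *Kif20a*, *Mcm2*, *Mki67*, *Top2a* and *Ube2c*, most of which act in mitosis), and in the other 29 the effect was called in Pdgfrα- cells alone. The level of *Mki67* (ENSMUSG00000031004, chromosome 7, 142881471 to 142908062, minus strand), which encodes the Ki-67 protein of dividing cells, was 5385 and 6467 (DN), 571 and 477 (GSP), 130.5 and 106 (PSP) and 294 and 255 (DP). Double-negative cells were highest and Pdgfrα single-positive cells lowest, and no 2 populations overlapped. *Mki67* was 2.32-fold higher with GFP in Pdgfrα+ cells, at 1.21 (adjusted p = 0.000637, limma), and 11.3-fold lower in Pdgfrα- cells, at -3.50 (adjusted p = 3.44e-09, limma), and the interaction was 4.71 (standard error 0.21, adjusted p = 1.75e-08, limma). *Ube2c*, which loads ubiquitin for the anaphase-promoting complex, stood at 182 and 243 (DN), 27.3 and 26.9 (GSP), 9.20 and 6.39 (PSP) and 25.8 and 20.6 (DP) and had an interaction of 4.38 (adjusted p = 8.4e-07, limma). *Ube2c* lost its call in Pdgfrα+ cells without PSP library 2 (adjusted p = 0.0541, limma), and its exons overlap *Tnnc2* on the other strand. The cell cycle genes summed to 14201 and 15536 (DN), 2066 and 1813 (GSP), 695 and 569 (PSP) and 1219 and 1019 (DP), again led by double-negative cells.

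Genes that hold cells out of division form another list. Of 12 such genes, 2 had a positive and 6 a negative interaction, with a median of -0.40 (0.44 in Pdgfrα+ and 0.74 in Pdgfrα- cells) that turned positive after median centring. *Cdkn1c*, an imprinted inhibitor of cyclin-dependent kinases, was at 19.7 and 26.5 (DN), 973 and 1113 (GSP), 481 and 479 (PSP) and 452 and 394 (DP). It was lowest in double-negative cells and highest in GFP single-positive cells, and its interaction was -5.63 (adjusted p = 9.01e-09, limma). The effect of -0.19 in Pdgfrα+ cells was not called.

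Other genes were also higher with GFP in Pdgfrα+ cells and lower in Pdgfrα- cells. *Ell2* (ENSMUSG00000001542, chromosome 13, 75844932 to 75909804, plus strand), an elongation factor of RNA polymerase II, stood at 189.7 and 194 (DN), 17.4 and 13.8 (GSP), 29.1 and 22.1 (PSP) and 135 and 88.7 (DP). Double-negative and double-positive cells were both high and the single-positive populations both low, without overlap between high and low. The *Ell2* effect was 2.06 (adjusted p = 0.000269, limma) in Pdgfrα+ cells and -3.55 (adjusted p = 7.63e-08, limma) in Pdgfrα- cells, with an interaction of 5.62 (standard error 0.31, adjusted p = 9.44e-08, limma). It kept its pattern in all 8 fits without 1 library and under all 12 other alternatives.

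*H2-K1* (ENSMUSG00000061232, chromosome 17, 34132962 to 34137278, minus strand), a class I major histocompatibility molecule that presents peptides to T cells, was at 127 and 120.4 (DN), 17.1 and 19.4 (GSP), 5.67 and 7.87 (PSP) and 32.7 and 20.8 (DP). It was lowest in Pdgfrα single-positive and highest in double-negative cells, with no overlap of either with the rest. Its effect was 1.82 (adjusted p = 0.00161, limma) in Pdgfrα+ and -2.70 (adjusted p = 2.55e-06, limma) in Pdgfrα- cells. Among the 23 genes of antigen presentation and interferon response, 8 had a positive and 4 a negative interaction, with a median of 0.58 (-0.29 in Pdgfrα+ and -1.09 in Pdgfrα- cells). The negative ones included *Ifitm3*, an antiviral membrane protein, at 6.18 and 9.55 (DN), 47.7 and 58.0 (GSP), 192 and 125 (PSP) and 115 and 87.5 (DP), with an interaction of -3.24 (adjusted p = 1.76e-05, limma).

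*Tgfb1* (ENSMUSG00000002603, chromosome 7, 26472021 to 26490096, plus strand), a growth factor that bone matrix stores in latent form, stood at 46.1 and 50.3 (DN), 6.68 and 4.76 (GSP), 11.0 and 10.5 (PSP) and 54.5 and 29.2 (DP). It was high in double-negative and double-positive cells and low in both single-positive populations. The interaction was 4.69 (standard error 0.43, adjusted p = 3.87e-06, limma), from 1.80 (adjusted p = 0.00482, limma) in Pdgfrα+ cells and -2.89 (adjusted p = 6.26e-06, limma) in Pdgfrα- cells. *Tgfb1* lost its call in Pdgfrα+ cells without PSP library 1 or 2 or DP library 1 (adjusted p = 0.0511 to 0.061, limma). The related *Tgfb2* ran the other way, at 5.03 and 8.84 (DN), 119 and 131 (GSP), 132 and 134 (PSP) and 59.5 and 76.3 (DP), with an interaction of -5.00 (adjusted p = 2.37e-07, limma). Its called decrease in Pdgfrα+ cells, -0.97, was lost without PSP library 1 or 2, GSP library 1 or 2 or DP library 1 or 2 (adjusted p = 0.0577 to 0.179, limma), with no trend in limma (adjusted p = 0.128) and at a pseudocount of 0.1 (adjusted p = 0.0597).

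Further genes of this direction follow. *Cd24a*, a small surface glycoprotein of many immature cells, was at 3135 and 3073 (DN), 48.9 and 27.9 (GSP), 46.5 and 40.2 (PSP) and 91.0 and 92.7 (DP). Double-negative cells were far above the rest, and double-positive cells were above Pdgfrα single-positive cells without overlap. Its interaction was 7.42 (adjusted p = 9.4e-09, limma), with an effect of 1.07 in Pdgfrα+ cells that lost its call without PSP library 1 or 2 or DP library 1 or 2 (adjusted p = 0.0667 to 0.128, limma) and with no trend in limma (adjusted p = 0.102). *Psd4*, an exchange factor for the small GTPase Arf6, stood at 57.9 and 45.6 (DN), 0.607 and 0.386 (GSP), 0.882 and 0.743 (PSP) and 11.2 and 5.32 (DP), with an interaction of 7.41 (adjusted p = 1.13e-06, limma). *Psd4* was at the floor in both single-positive populations, and the call in Pdgfrα+ cells was lost without PSP library 1 or 2 or DP library 1 (adjusted p = 0.055 to 0.0714, limma). *Cpox*, an enzyme of haem synthesis, was at 1025 and 1253 (DN), 28.5 and 31.0 (GSP), 29.9 and 28.4 (PSP) and 47.9 and 42.1 (DP), and *Art4*, which carries the Dombrock blood group, at 25.99 and 33.8 (DN), 0.121 and 0.386 (GSP), 0.126 and 0.446 (PSP) and 4.56 and 2.44 (DP). Both were highest in double-negative cells, as the erythroid genes were. *Cpox* lost its call in Pdgfrα+ cells without PSP library 1 or 2, GSP library 1 or 2 or DP library 1 or 2 (adjusted p = 0.0721 to 0.221, limma), in the fit of 6 libraries (adjusted p = 0.0799), in edgeR (adjusted p = 0.0592), with no trend in limma (adjusted p = 0.182), at a pseudocount of 0.1 (adjusted p = 0.0584) and in voom (adjusted p = 0.222), and *Art4* without PSP library 1 or 2, GSP library 1 or 2 or DP library 1 (adjusted p = 0.0528 to 0.179, limma) and in voom (adjusted p = 0.0555).

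The reverse opposite pattern, lower with GFP in Pdgfrα+ cells and higher in Pdgfrα- cells, held 181 genes. By its definition only single-positive populations can be highest and only the other populations lowest, and Pdgfrα single-positive cells were highest in 162 and double-negative cells lowest in 176. *Dcx* (ENSMUSG00000031285, chromosome X, 140290385 to 140367854, minus strand), a microtubule-binding protein of migrating neurons, was at 0.718 and 1.30 (DN), 149 and 142 (GSP), 20.04 and 35.5 (PSP) and 4.56 and 10.5 (DP). GFP single-positive cells were highest, double-negative cells at or near the floor, and the Pdgfrα+ populations lay between without overlap. The interaction was -8.00 (standard error 0.53, adjusted p = 3.24e-07, limma), and the decrease in Pdgfrα+ cells, -1.79 (adjusted p = 0.0164, limma), was lost without PSP library 2, GSP library 1 or 2 or DP library 1 (adjusted p = 0.0598 to 0.193, limma) and with no trend in limma (adjusted p = 0.0672).

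*Mstn* (ENSMUSG00000026100, chromosome 1, 53118507 to 53124923, plus strand), the secreted brake on muscle growth myostatin, was at 0.144 and 0.118 (DN), 41.9 and 44.4 (GSP), 16.3 and 10.8 (PSP) and 1.52 and 2.16 (DP). It was highest in GFP single-positive cells and at the floor in double-negative cells, and the double-positive libraries lay below both Pdgfrα single-positive ones. The effect was -2.34 (adjusted p = 0.00308, limma) in Pdgfrα+ cells and 5.29 in Pdgfrα- cells, the latter from the floor. *Mstn* lost its call in Pdgfrα+ cells without PSP library 1 (adjusted p = 0.0529, limma). *Chodl*, the membrane lectin chondrolectin, stood at 8.47 and 4.60 (DN), 477 and 474 (GSP), 228 and 209.8 (PSP) and 88.2 and 88.4 (DP), with an interaction of -7.33 (adjusted p = 9.4e-09, limma). It fell 2.48-fold with GFP in Pdgfrα+ cells and was 72.8-fold higher with GFP in Pdgfrα- cells. That decrease was lost without PSP library 1 (adjusted p = 0.0604, limma) and with no trend in limma (adjusted p = 0.0529).

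Hedgehog co-receptors were among the genes with opposite effects. Of 11 Hedgehog genes, 9 had a negative interaction and 0 a positive one, with a median of -2.92 (0.19 in Pdgfrα+ and 3.38 in Pdgfrα- cells). The 3 with opposite calls, *Boc*, *Cdon* and *Gas1*, all encode co-receptors. *Cdon* (ENSMUSG00000038119, chromosome 9, 35228713 to 35315236, plus strand) was at 7.32 and 7.19 (DN), 228 and 248 (GSP), 683 and 608 (PSP) and 265 and 314 (DP). It was lowest in double-negative and highest in Pdgfrα single-positive cells, which overlapped with no other population. The effect was -1.16 (adjusted p = 0.000584, limma) in Pdgfrα+ cells and 4.85 (adjusted p = 2.64e-10, limma) in Pdgfrα- cells, and the interaction -6.01 (standard error 0.20, adjusted p = 6.8e-09, limma). *Gas1* (ENSMUSG00000052957, chromosome 13, 60275766 to 60278726, minus strand) was at 9.91 and 6.72 (DN), 221 and 215 (GSP), 456 and 441 (PSP) and 172 and 191 (DP), likewise lowest in double-negative and highest in Pdgfrα single-positive cells, with an interaction of -5.88 (standard error 0.24, adjusted p = 9.45e-09, limma). Both genes kept the pattern in every one of the 8 fits without 1 library and of the 12 other alternatives. A transcription factor of the pathway did not share the decrease in Pdgfrα+ cells. *Gli2* stood at 2.15 and 3.42 (DN), 61.5 and 68.6 (GSP), 86.1 and 69.9 (PSP) and 117 and 91.6 (DP), with an effect of 0.41 in Pdgfrα+ cells that was not called and an interaction of -3.73 (adjusted p = 2.23e-06, limma).

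**Figure D3:**
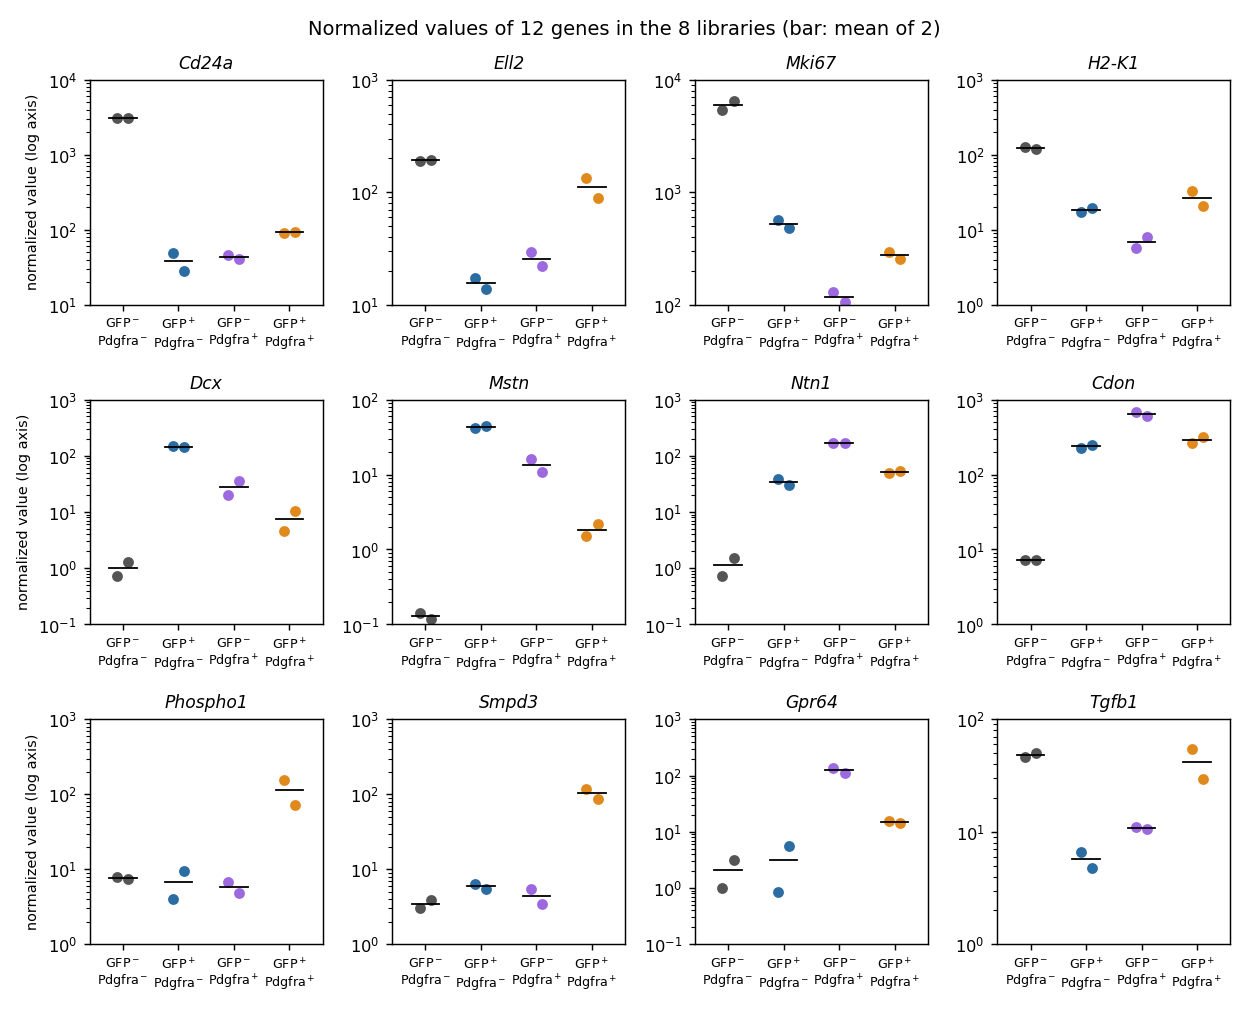
Normalized values of 12 genes in the 8 libraries on log axes, each point a library and each bar the mean of 2. The upper row and *Tgfb1* are higher in double-positive than in Pdgfrα single-positive cells and lower in GFP single-positive than in double-negative cells, the middle row is the reverse, and *Phospho1*, *Smpd3* and *Gpr64* differ with GFP among Pdgfrα+ cells.

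Guidance cues and their receptors had mostly negative interactions too. With GFP in Pdgfrα+ cells, however, 11 of them were called higher and 3 lower. Of 51 such genes, 35 had a negative and 3 a positive interaction, with a median of -2.40 (0.26 in Pdgfrα+ and 2.73 in Pdgfrα- cells). Effects were opposite in 4, *Ntn1*, *Sema3c*, *Sema3e* and, in the other direction, *Sema4d*, restricted to Pdgfrα- cells in 29 and of the same sign in 5. *Sema3e* lost its call in Pdgfrα+ cells when any single PSP, GSP or DP library was left out, with effects of -1.43 to -2.06. It also lost it with no trend in limma (adjusted p = 0.0734) and at a pseudocount of 0.1 (adjusted p = 0.216). *Ntn1* (ENSMUSG00000020902, chromosome 11, 68022866 to 68214325, minus strand), the secreted cue netrin-1, stood at 0.718 and 1.53 (DN), 38.7 and 30.5 (GSP), 167 and 166 (PSP) and 49.9 and 53.0 (DP). Pdgfrα single-positive cells were highest and double-negative cells near the floor, and double-positive cells lay above GFP single-positive ones. The effect was -1.67 (adjusted p = 0.00172, limma) in Pdgfrα+ cells, with an interaction of -5.76 (standard error 0.33, adjusted p = 1.22e-07, limma), and the pattern held in all 8 fits without 1 library and 12 other alternatives. Exons of *Ntn1* overlap another annotated transcript on its own strand. *Sema5a*, a transmembrane semaphorin, rose with GFP in both fractions, at 6.18 and 7.43 (DN), 177 and 179 (GSP), 200.1 and 223 (PSP) and 394 and 415 (DP), by 0.93 (adjusted p = 0.00275, limma) in Pdgfrα+ cells and 4.52 in Pdgfrα- cells. Its call in Pdgfrα+ cells was lost without PSP library 1 (adjusted p = 0.0523, limma) and with no trend in limma (adjusted p = 0.0529).

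Tendon genes were lower in double-positive than in Pdgfrα single-positive cells. Of 16 tendon and ligament genes, 12 fell with GFP in Pdgfrα+ cells and 0 rose, with a median effect of -1.53. The interaction was negative for 10 and its median -1.99. Effects were opposite in 5, *Aspn*, *Col12a1*, *Fibin*, *Ogn* and *Scx*. *Col12a1* and *Fibin* lost the call in Pdgfrα+ cells when any single PSP or DP library was left out. Their effects in those fits were -0.92 to -0.94 and -0.68 to -0.91. Both also lost it with no trend in limma (adjusted p = 0.105 and 0.0878), and *Col12a1* after quantile normalization (-0.46, adjusted p = 0.134). *Scx* (ENSMUSG00000034161, chromosome 15, 76287868 to 76289898, plus strand), the transcription factor scleraxis of tendon progenitors, was at 0.431 and 0.590 (DN), 3.04 and 3.22 (GSP), 7.94 and 10.8 (PSP) and 0.690 and 0.719 (DP). It was near or under the floor in double-negative and double-positive cells, moderate in GFP single-positive cells and highest in Pdgfrα single-positive cells. The effect was -2.59 (adjusted p = 0.00196, limma) in Pdgfrα+ cells and 1.45 (adjusted p = 0.0058, limma) in Pdgfrα- cells, where the call was lost after quantile normalization (adjusted p = 0.101). *Ogn*, the small proteoglycan osteoglycin, stood at 14.8 and 18.5 (DN), 146 and 102 (GSP), 929.7 and 935 (PSP) and 377 and 491 (DP), with an interaction of -3.92 (adjusted p = 3.7e-07, limma). *Ogn* lost its call in Pdgfrα+ cells without PSP library 1 or 2 or DP library 1 (adjusted p = 0.0648 to 0.072, limma) and with no trend in limma (adjusted p = 0.0734). The tendon list summed to 261 and 375 (DN), 795 and 809 (GSP), 13693 and 14203 (PSP) and 5610.2 and 5932 (DP), led by *Col12a1*.

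Positional transcription factors of the skeleton were among the genes with opposite or Pdgfrα+-restricted decreases. Of 28 limb patterning genes, 20 had a negative and 1 a positive interaction, with a median of -2.63 (-0.44 in Pdgfrα+ and 1.72 in Pdgfrα- cells). Effects were opposite in 5 (among them *Six2*, *Tbx4*, *Tbx5* and *Tbx15*) and restricted to Pdgfrα+ cells in 3 (*Lmx1b*, *Pax1* and *Pitx1*), all of which were lower in double-positive than in Pdgfrα single-positive cells. *Tbx4* lost its call in Pdgfrα+ cells without PSP library 1 or 2, GSP library 1 or 2 or DP library 1, with effects of -1.48 to -2.50. It also lost it with no trend in limma (adjusted p = 0.0541) and at a pseudocount of 0.1 (adjusted p = 0.0641). *Six2* lost its call there without PSP library 2 (-1.91) or DP library 1 (-1.85) and at a pseudocount of 0.1 (adjusted p = 0.0605). *Tbx15*, which shapes the limb skeleton, was at 1.01 and 2.24 (DN), 50.9 and 52.1 (GSP), 161 and 132 (PSP) and 58.7 and 54.2 (DP), with an interaction of -5.72 (adjusted p = 1.43e-07, limma). *Tbx15* lost its call in Pdgfrα+ cells without PSP library 1 or 2 or DP library 1 or 2 (adjusted p = 0.0508 to 0.11, limma). *Prrx1*, a homeobox gene of early limb mesenchyme, was at 9.91 and 13.8 (DN), 148 and 152 (GSP), 513 and 458 (PSP) and 427 and 357 (DP), with no called effect in Pdgfrα+ cells and an interaction of -3.88 (adjusted p = 1.58e-07, limma).

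Of 32 *Hox* genes, 22 had a negative and 0 a positive interaction, with a median of -2.10 (-0.29 in Pdgfrα+ and 1.43 in Pdgfrα- cells). The effect was restricted to Pdgfrα- cells in 16 and to Pdgfrα+ cells in 4. The latter were *Hoxa13*, *Hoxd9*, *Hoxd10* and *Hoxd11*, which were picked after their values were seen, so their calls were not followed across the alternatives. *Hoxd11* was at 0.718 and 0.354 (DN), 0.850 and 0.386 (GSP), 6.18 and 10.5 (PSP) and 0.414 and 1.29 (DP), with an effect of -2.34 (adjusted p = 0.00717, limma) in Pdgfrα+ cells. *Hoxa13* was at 0.431 and 0.825 (DN), 0.850 and 1.41 (GSP), 2.65 and 3.12 (PSP) and 0.414 and 0.144 (DP), under the floor in double-positive cells. Both were higher in both Pdgfrα single-positive libraries than in the double-positive ones. *Hoxc6*, the most abundant of the list, was at 0.718 and 0.590 (DN), 18.8 and 14.8 (GSP), 24.8 and 22.7 (PSP) and 20.3 and 26.02 (DP), with an effect of -0.05 in Pdgfrα+ cells that was not called and an interaction of -3.47 (adjusted p = 4.3e-05, limma). Long bones and sterna were pooled, and whether the sorted populations differ in the bones they came from was not tested.

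Fibrous matrix genes included members of several patterns. Of 31 interstitial matrix genes, 28 had a negative interaction and 0 a positive one, with a median of -2.42 (-0.29 in Pdgfrα+ and 2.23 in Pdgfrα- cells). Effects were opposite in 6 (*Col3a1*, *Col6a1*, *Col6a3*, *Eln*, *Postn* and *Thbs3*), restricted to Pdgfrα- cells in 17 and of the same sign in 4. *Eln* lost its call in Pdgfrα+ cells when any single PSP, GSP or DP library was left out, with effects of -1.59 to -1.97. It also lost it with no trend in limma (adjusted p = 0.127) and at a pseudocount of 0.1 (adjusted p = 0.0642). *Col6a1*, a chain of the microfibrillar collagen VI, was at 47.5 and 50.1 (DN), 365 and 452 (GSP), 2212 and 2325 (PSP) and 1403 and 1415 (DP), with an interaction of -3.72 (adjusted p = 2.78e-08, limma). Its decrease in Pdgfrα+ cells was lost without PSP library 1 or 2 or DP library 1 (adjusted p = 0.0623 to 0.1, limma), with no trend in limma (adjusted p = 0.133) and after quantile normalization (adjusted p = 0.085). *Col3a1*, the fibrillar collagen III of soft tissue, stood at 122 and 106 (DN), 1318 and 1168 (GSP), 11278 and 10779.5 (PSP) and 7607 and 7310.5 (DP). Its decrease in Pdgfrα+ cells, -0.56 (adjusted p = 0.0184, limma), turned to 0.0401 after quantile normalization and was lost without PSP library 1 or 2 or DP library 1 or 2 (adjusted p = 0.0794 to 0.159, limma), with no trend in limma (adjusted p = 0.194) and after quantile normalization (adjusted p = 0.904). *Col1a1*, the main collagen of bone, rose with GFP in both fractions, at 435 and 560.2 (DN), 3099 and 2562 (GSP), 16841 and 15352 (PSP) and 51184 and 38311 (DP). Its effect was 1.46 (adjusted p = 0.000569, limma) in Pdgfrα+ and 2.51 (adjusted p = 1.91e-07, limma) in Pdgfrα- cells, and its exons overlap another transcript on the other strand.

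Growth genes, taken as a mixed list, had mostly negative interactions. Of 22 genes of insulin-like growth factor signalling and imprinted growth control, 20 had a negative interaction and 0 a positive one, with a median of -3.81 (-0.45 in Pdgfrα+ and 3.36 in Pdgfrα- cells). The calls were opposite in 3, *Igf2*, *Igfbp5* and *Meg3*. *Igf2* and *Meg3* lost the call in Pdgfrα+ cells when any single PSP, GSP or DP library was left out. Their effects in those fits were -0.82 to -0.91 and -0.55 to -0.80. Both also lost it with no trend in limma (adjusted p = 0.178 and 0.231) and at a pseudocount of 0.1 (adjusted p = 0.0541 and 0.0797). *Meg3* lost it in edgeR (adjusted p = 0.0518) and after quantile normalization (adjusted p = 0.160) too. *Dlk1*, a membrane protein of progenitors that inhibits adipocyte formation, was at 9.62 and 30.8 (DN), 843 and 933 (GSP), 1567 and 1619 (PSP) and 941 and 1014 (DP), with an interaction of -6.30 (adjusted p = 1.08e-06, limma). The decrease in Pdgfrα+ cells, -0.70, was not called with the deposited values and was called without DN library 1 or 2 (adjusted p = 0.00182 to 0.00186, limma), in the fit of 6 libraries (adjusted p = 0.00171) and in voom (adjusted p = 0.00289). *Peg10*, an imprinted gene derived from a retrotransposon, was at 7.32 and 12.9 (DN), 485 and 489.7 (GSP), 242 and 289.7 (PSP) and 236 and 324 (DP), with an interaction of -5.45 (adjusted p = 1.19e-07, limma). Both were low in the double-negative libraries and high in the other 6.

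Effects restricted to Pdgfrα+ cells were rarer, and bone genes were among the increases. Of the 90 genes restricted to Pdgfrα+ cells that were higher with GFP, double-positive cells were the highest population in 77. By the definition of this set, Pdgfrα single-positive cells cannot be highest. Of 26 bone matrix and osteoblast genes, 20 rose with GFP in Pdgfrα+ cells and 0 fell. The interaction was positive in 15 and negative in 1, and the median effect was 2.68 in Pdgfrα+ and 0.88 in Pdgfrα- cells. The effect was restricted to Pdgfrα+ cells in 7 of them, of the same sign in 7 and opposite in 1, *Ank*. Their summed level was 221 and 216 (DN), 994 and 846 (GSP), 952 and 793 (PSP) and 11852 and 8001 (DP), led by *Spp1*.

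*Phospho1* (ENSMUSG00000050860, chromosome 11, 95685813 to 95693454, plus strand), a phosphatase that frees phosphate inside matrix vesicles at the start of mineralization, was at 7.90 and 7.43 (DN), 4.01 and 9.39 (GSP), 6.68 and 4.90 (PSP) and 153 and 71.7 (DP). Both double-positive libraries were far above all other 6, which overlapped with each other. The effect was 3.98 (standard error 0.41, adjusted p = 0.000213, limma) in Pdgfrα+ cells and -0.26 in Pdgfrα- cells (95% interval -1.16 to 0.64), and the interaction was 4.24 (standard error 0.58, adjusted p = 0.000101, limma). Its exons overlap *Abi3* on the other strand and *Zfp652* on its own. *Smpd3* (ENSMUSG00000031906, chromosome 8, 108779159 to 108789819, minus strand), a neutral sphingomyelinase needed for bone mineralization, stood at 3.02 and 3.89 (DN), 6.43 and 5.53 (GSP), 5.42 and 3.42 (PSP) and 119 and 87.0 (DP). Here too only double-positive cells were high, with an effect of 4.27 (standard error 0.33, adjusted p = 2.51e-05, limma) in Pdgfrα+ cells and an interaction of 3.62 (standard error 0.46, adjusted p = 5.74e-05, limma). The effect in Pdgfrα- cells was 0.65 (95% interval -0.06 to 1.37). *Phospho1* and *Smpd3* kept the restricted pattern in all 8 fits without 1 library and under all 12 other alternatives. *Bglap2*, one of the osteocalcin genes of bone matrix, was at 0.144 and 0.118 (DN), 0.850 and 0.129 (GSP), 2.14 and 1.63 (PSP) and 42.4 and 32.9 (DP). Double-positive cells were far above the rest, with an interaction of 3.38 (adjusted p = 0.000466, limma). It was 0.79 in edgeR (adjusted p = 0.743) and 3.02 in voom (adjusted p = 0.112), called in neither.

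Other genes with an effect called in Pdgfrα+ cells alone have roles outside the mineral itself. *Car3*, a carbonic anhydrase of muscle and fat, was at 34.6 and 18.3 (DN), 49.4 and 23.5 (GSP), 15.0 and 8.46 (PSP) and 209 and 157 (DP), with an effect of 3.89 (adjusted p = 0.000141, limma) in Pdgfrα+ cells and an interaction of 3.46 (standard error 0.53, adjusted p = 0.000232, limma). It kept the pattern in all 8 fits without 1 library and under all 12 other alternatives. *Spns2*, a transporter that releases sphingosine 1-phosphate, stood at 11.3 and 17.8 (DN), 9.11 and 7.85 (GSP), 2.40 and 3.42 (PSP) and 52.3 and 28.0 (DP), with an interaction of 4.03 (adjusted p = 5.75e-05, limma). It was lowest in Pdgfrα single-positive cells and highest in double-positive cells, and its exons overlap *Mybbp1a* on the other strand. Its decrease in Pdgfrα- cells, -0.69, was not called as deposited but was called after median centring (adjusted p = 0.015) and after quantile normalization (adjusted p = 0.0273). *Mmp9*, the gelatinase of osteoclasts and other cells, was at 5.89 and 2.71 (DN), 2.55 and 7.33 (GSP), 0.630 and 1.34 (PSP) and 16.4 and 26.6 (DP), with an effect of 3.49 (adjusted p = 0.00192, limma) in Pdgfrα+ cells.

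*Mmp9* is in the osteoclast list, and no other of its genes had a called increase with GFP in Pdgfrα+ cells. Of the 8 genes, *Mmp9* included, 3 had a positive and 4 a negative interaction, with a median of -0.66 (-0.20 in Pdgfrα+ and 0.75 in Pdgfrα- cells), and they summed to 186 and 180.4 (DN), 155 and 173 (GSP), 408 and 401 (PSP) and 300.5 and 333 (DP). *Acp5*, the tartrate-resistant acid phosphatase of osteoclasts, was at 97.2 and 108 (DN), 1.09 and 1.41 (GSP), 0.882 and 4.01 (PSP) and 0.967 and 1.58 (DP), high in double-negative cells alone, with an interaction of 5.08 (adjusted p = 5.91e-05, limma). *Nfatc1*, a transcription factor that drives osteoclast formation and the most abundant of the list, was at 11.3 and 10.5 (DN), 52.1 and 49.8 (GSP), 165 and 159 (PSP) and 81.9 and 91.3 (DP). It had opposite effects, -0.90 (adjusted p = 0.00671, limma) in Pdgfrα+ and 2.12 in Pdgfrα- cells, and lost its call in Pdgfrα+ cells without PSP library 1 or 2 or DP library 1 (adjusted p = 0.0635 to 0.0832, limma) and with no trend in limma (adjusted p = 0.0529). A further 4 osteoclast genes are not in the table.

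Cartilage genes split. Of 23, 9 fell and 2 rose with GFP in Pdgfrα+ cells, 9 had a positive and 4 a negative interaction, and the median interaction was 0.66 (-0.91 in Pdgfrα+ and -1.73 in Pdgfrα- cells). *Col11a2*, a chain of the cartilage collagen XI, was at 32.3 and 48.0 (DN), 22.9 and 22.8 (GSP), 32.4 and 83.3 (PSP) and 338 and 254 (DP). Double-positive cells were above all others and the other populations were not ordered without overlap, with an effect of 2.47 (adjusted p = 0.00154, limma) in Pdgfrα+ cells and an interaction of 3.23 (adjusted p = 0.000202, limma). Its decrease in Pdgfrα- cells was called without PSP library 1 or 2 (adjusted p = 0.0154 to 0.0168, limma), in edgeR (adjusted p = 0.048) and after median centring (adjusted p = 0.00712). *Cilp2*, a matrix protein of cartilage, ran the other way, at 0.431 and 0.590 (DN), 0.121 and 0.386 (GSP), 16.5 and 29.8 (PSP) and 1.52 and 1.01 (DP), high in Pdgfrα single-positive cells alone. Its effect was -3.37 (adjusted p = 0.000598, limma) in Pdgfrα+ cells. Its interaction of -3.10 lost its call in edgeR (-2.84, adjusted p = 0.33) and in voom (-2.83, adjusted p = 0.164). The cartilage list summed to 1088 and 1684 (DN), 414 and 447 (GSP), 1854 and 3730.2 (PSP) and 3309 and 2558 (DP), led by *Col11a1*.

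Among the 80 genes restricted to Pdgfrα+ cells that were lower with GFP, Pdgfrα single-positive cells were the highest population in 76. By the definition of this set, double-positive cells cannot be highest. *Gpr64* (ENSMUSG00000031298, chromosome X, 156828622 to 156936002, plus strand), an adhesion G protein-coupled receptor, was at 1.01 and 3.18 (DN), 0.850 and 5.53 (GSP), 136 and 113 (PSP) and 15.3 and 14.5 (DP). Both Pdgfrα single-positive libraries were far above the rest, double-positive cells were next, and the Pdgfrα- libraries overlapped. The effect was -2.97 (standard error 0.52, adjusted p = 0.00597, limma) in Pdgfrα+ cells and 0.26 in Pdgfrα- cells (95% interval -0.87 to 1.40). *Gpr64* lost its call in Pdgfrα+ cells without PSP library 1 or 2 or DP library 1 or 2 (adjusted p = 0.0515 to 0.0925, limma), and its exons overlap a predicted gene on the other strand. *Tmem30b*, a partner of lipid flippases, stood at 0.431 and 0.118 (DN), 0.850 and 1.93 (GSP), 24.6 and 19.2 (PSP) and 2.90 and 4.17 (DP), with an effect of -2.34 (adjusted p = 0.00606, limma). *Tmem30b* lost its call in Pdgfrα+ cells without PSP library 1 or DP library 1 (adjusted p = 0.0551 to 0.0713, limma) and at a pseudocount of 0.1 (adjusted p = 0.0663), and gained one in Pdgfrα- cells in edgeR (adjusted p = 0.0386), with no trend in limma (adjusted p = 0.0443) and at a pseudocount of 0.1 (adjusted p = 0.0267).

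The pattern restricted to Pdgfrα- cells was the largest, with 3404 genes higher and 2640 lower in GFP single-positive than in double-negative cells. Double-negative cells were the lowest population in 3257 of the former and the highest in 2565 of the latter. Its increases included *Col6a6* (ENSMUSG00000043719, chromosome 9, 105591747 to 105730415, minus strand), a chain of collagen VI, and *Agtr2*, the type 2 angiotensin II receptor of fetal mesenchyme. *Col6a6* stood at 3.59 and 2.48 (DN), 300.5 and 371 (GSP), 403 and 398 (PSP) and 269.7 and 266 (DP), with an interaction of -6.97 (standard error 0.23, adjusted p = 6.8e-09, limma), and *Agtr2* at 5.60 and 5.54 (DN), 429.6 and 495 (GSP), 1047 and 989 (PSP) and 854 and 1128 (DP), with an interaction of -6.19 (standard error 0.21, adjusted p = 6.8e-09, limma). In both, the double-negative libraries were low and all 6 others high. The effect in Pdgfrα+ cells was -0.05 for *Agtr2*, not called, and -0.58 for *Col6a6*, not called with the deposited values at 0.0691 (adjusted p, limma) but called without DN library 1 or 2 (adjusted p = 0.0186 to 0.0192, limma), in the fit of 6 libraries (adjusted p = 0.0127), in edgeR (adjusted p = 0.0402) and in voom (adjusted p = 0.00657), and at an adjusted p of at most 0.10.

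Red cell genes were among the decreases of that pattern. All 22 of 22 erythroid genes had a called positive interaction, and all 22 were restricted to Pdgfrα- cells, with a median interaction of 6.17 (-0.09 in Pdgfrα+ and -6.19 in Pdgfrα- cells). *Hba-a2*, an α-globin gene, was at 1709 and 2880.1 (DN), 16.9 and 11.4 (GSP), 5.92 and 2.23 (PSP) and 5.39 and 5.89 (DP), with an interaction of 7.71 (standard error 0.49, adjusted p = 2.42e-07, limma). *Slc4a1*, the anion exchanger of the red cell membrane, stood at 2407 and 2989.8 (DN), 24.2 and 12.5 (GSP), 5.42 and 5.49 (PSP) and 5.66 and 9.06 (DP), with an interaction of 7.53 (adjusted p = 7.27e-08, limma). *Tal1*, a transcription factor of early blood development, was at 222 and 295 (DN), 3.04 and 1.41 (GSP), 0.378 and 0.743 (PSP) and 1.24 and 3.02 (DP). All 3 were high in both double-negative libraries and low in the other 6, and within Pdgfrα+ cells none was called.

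Of 17 myeloid genes, 4 had a positive and 0 a negative interaction, with a median of 1.31, and they summed to 156 and 152 (DN), 44.8 and 48.0 (GSP), 39.2 and 25.4 (PSP) and 13.1 and 32.1 (DP), led by *Lyz2*. Of 5 megakaryocyte and mast cell genes, 3 had a positive interaction, with a median of 1.71 and sums of 17.7 and 22.3 (DN), 3.04 and 2.96 (GSP), 5.42 and 5.49 (PSP) and 5.11 and 12.8 (DP), led by *Gp1ba*. Of 3 lymphoid genes, 1 had a negative interaction, the median was 0.25 and the sums were 1.87 and 6.01 (DN), 10.1 and 4.24 (GSP), 2.40 and 1.93 (PSP) and 1.52 and 3.59 (DP), led by *Blnk*. These 3 lists have 11, 7 and 14 further genes that are not in the table. Of 18 endothelial genes, 1 had a positive and 3 a negative interaction, with a median of 0.64, and they summed to 104 and 262 (DN), 105 and 193 (GSP), 143 and 159 (PSP) and 126 and 172 (DP), led by *Vwf*. The endothelial sums overlapped between all populations. Of 2 epithelial genes in the table, 0 had a called interaction, with a median of -0.11 that turned positive after median centring and quantile normalization, and the sums were 1.44 and 1.41 (DN), 1.94 and 2.32 (GSP), 1.26 and 3.56 (PSP) and 1.66 and 4.31 (DP), led by *Sfn*.

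Proteasome genes had mostly positive interactions. Most ribosomal protein genes had no called interaction, with 30.8% called against 44.3% of all genes. Of 38 proteasome genes, 29 had a positive interaction and 0 a negative one, all restricted to Pdgfrα- cells, with a median of 1.12 (0.19 in Pdgfrα+ and -1.02 in Pdgfrα- cells). *Psmd1*, a scaffold subunit of the regulatory particle, was at 249 and 241 (DN), 92.9 and 107 (GSP), 103 and 89.5 (PSP) and 111 and 86.4 (DP), with an interaction of 1.32 (adjusted p = 0.000486, limma). The double-negative libraries were high and the 6 others overlapped. Of 78 ribosomal protein genes, 24 had a positive and 0 a negative interaction, with a median of 0.49 (0.02 in Pdgfrα+ and -0.46 in Pdgfrα- cells). *Rpsa*, a ribosomal protein with opposite calls, stood at 619 and 783 (DN), 241 and 219.6 (GSP), 101 and 98.5 (PSP) and 190.2 and 165 (DP), with an interaction of 2.42 (adjusted p = 1.94e-06, limma), and lost its call in Pdgfrα+ cells without PSP library 1 or 2 or DP library 1 (adjusted p = 0.0585 to 0.073, limma) and with no trend in limma (adjusted p = 0.0955).

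Respiratory chain genes are encoded in the nucleus and in mitochondria. Of 79 nuclear ones, 28 had a positive and 1 a negative interaction, with a median of 0.85. Of 13 mitochondrial ones, 7 had a positive and 0 a negative interaction, with a median of 0.83, beside the higher mitochondrial share of the double-negative libraries given above. *Atp5b*, the catalytic subunit of ATP synthase, was at 2764 and 2386 (DN), 1045 and 1054 (GSP), 583 and 551 (PSP) and 965 and 689.8 (DP), with an interaction of 1.81 (adjusted p = 3.09e-05, limma). Of 18 glycolysis genes, 6 had a positive and 2 a negative interaction, with a median of 0.91. The kinases *Hk1* and *Pkm2* differed in direction, with called interactions of 3.07 and -2.59. Of 21 sterol synthesis genes, 6 had a positive and 1 a negative interaction, with a median of 0.74.

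Genes of the basement membrane had the lowest median among the function lists with the deposited values. Of 18, 16 had a negative interaction and 0 a positive one, with a median of -4.02 (0.09 in Pdgfrα+ and 4.19 in Pdgfrα- cells). *Lamb1*, a laminin chain, was at 9.62 and 13.8 (DN), 552 and 618 (GSP), 447 and 471 (PSP) and 477 and 517 (DP), with an interaction of -5.43 (standard error 0.22, adjusted p = 1.08e-08, limma). *Col15a1*, a collagen of vessel and muscle basement membranes, stood at 10.2 and 17.1 (DN), 855 and 1087 (GSP), 207 and 209 (PSP) and 300.4 and 273 (DP), with an interaction of -5.62 (adjusted p = 4.27e-08, limma). Both were low in double-negative cells, and *Col15a1* was highest in GFP single-positive cells.

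Of 25 matrix protease and inhibitor genes, 20 had a negative and 1 a positive interaction, with a median of -2.91 (0.49 in Pdgfrα+ and 2.94 in Pdgfrα- cells). The 2 with opposite calls were the inhibitors *Timp2* and *Timp3*. Both lost the call in Pdgfrα+ cells when any single PSP, GSP or DP library was left out. Their effects in those fits were -0.63 to -0.89 and -0.97 to -1.26. Both also lost it with no trend in limma (adjusted p = 0.189 and 0.152) and at a pseudocount of 0.1 (adjusted p = 0.0602 and 0.0516). *Timp2* lost it after quantile normalization too (adjusted p = 0.0668). *Adamts5*, a protease that cleaves aggrecan, stood at 2.44 and 3.42 (DN), 139 and 166 (GSP), 120.4 and 103 (PSP) and 176 and 169 (DP), with an interaction of -4.66 (adjusted p = 8.83e-08, limma). It was low in double-negative cells and high in the other 6 libraries.

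Effects of the same sign in both fractions were found in genes of bone, muscle, mural cells and glia. Of the 155, 136 rose with GFP in both fractions and 19 fell in both. *Slc13a5*, a citrate transporter that is abundant in osteoblasts, was at 0.718 and 0.825 (DN), 14.2 and 13.2 (GSP), 2.40 and 1.34 (PSP) and 171 and 152 (DP). It was highest in double-positive cells and at the floor in double-negative cells. The effect was 5.85 (adjusted p = 1.34e-06, limma) in Pdgfrα+ and 3.06 in Pdgfrα- cells, the latter from the floor, with an interaction of 2.79 (standard error 0.45, adjusted p = 0.000332, limma), and its exons overlap another transcript on the other strand. *Spp1*, the bone matrix phosphoprotein osteopontin, stood at 85.4 and 77.5 (DN), 494 and 393 (GSP), 287 and 174 (PSP) and 6048 and 3915 (DP), with an interaction of 2.01 (standard error 0.33, adjusted p = 0.000405, limma). Double-positive cells were far above the rest, GFP single-positive cells next. Both genes kept the pattern in all 8 fits without 1 library and under all 12 other alternatives.

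Muscle precursor genes had mostly negative interactions. Of 18, 17 had a negative interaction and 0 a positive one, with a median of -4.01 (1.36 in Pdgfrα+ and 5.47 in Pdgfrα- cells), and 6 also rose in Pdgfrα+ cells. They summed to 81.6 and 60.4 (DN), 3331 and 3545 (GSP), 355 and 345 (PSP) and 481 and 454 (DP), led by *Dag1*. *Megf10*, a receptor of satellite cells, was at 4.74 and 1.77 (DN), 536 and 496 (GSP), 17.0 and 10.5 (PSP) and 54.8 and 48.7 (DP), with an interaction of -5.15 (adjusted p = 2.45e-06, limma). GFP single-positive cells were highest and double-positive cells next, without overlap. *Megf10* lost its call in Pdgfrα+ cells without PSP library 2 or DP library 1 (adjusted p = 0.0573 to 0.0813, limma). *Fgfr4*, a fibroblast growth factor receptor of myoblasts, stood at 2.73 and 1.06 (DN), 308 and 329 (GSP), 0.378 and 1.34 (PSP) and 12.8 and 8.48 (DP), with an effect of 2.67 (adjusted p = 0.00196, limma) in Pdgfrα+ cells. Of 25 muscle fibre genes, 14 had a negative and 0 a positive interaction, with a median of -1.91 (0.09 in Pdgfrα+ and 2.60 in Pdgfrα- cells), and they summed to 121 and 99.2 (DN), 2188 and 2033 (GSP), 107 and 115 (PSP) and 255 and 239 (DP), led by *Ttn*. *Ttn*, the giant sarcomere protein titin, was at 41.8 and 31.7 (DN), 914 and 818 (GSP), 17.8 and 30.1 (PSP) and 109.8 and 79.2 (DP), with an effect of 1.96 (adjusted p = 0.000598, limma) in Pdgfrα+ cells, and its exons overlap a transcript on the other strand.

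Mural cell genes follow. Of 24 pericyte and smooth muscle genes, 20 had a negative and 0 a positive interaction, with a median of -2.93 (0.85 in Pdgfrα+ and 3.69 in Pdgfrα- cells). With GFP in Pdgfrα+ cells 7 rose and 1 fell. They summed to 136 and 199.7 (DN), 3396 and 4308 (GSP), 709 and 677 (PSP) and 1302 and 1211 (DP), led by *Rgs5*. *Notch3*, a receptor of mural cells, was at 7.90 and 14.0 (DN), 419.7 and 536 (GSP), 51.6 and 48.6 (PSP) and 118 and 125 (DP), with an interaction of -4.10 (adjusted p = 1.03e-06, limma), and its call in Pdgfrα+ cells was lost without PSP library 1 or 2 or DP library 1 or 2 (adjusted p = 0.0534 to 0.0855, limma) and with no trend in limma (adjusted p = 0.0674). *Rgs5*, a regulator of G protein signalling in pericytes, stood at 21.1 and 39.5 (DN), 731 and 1035 (GSP), 35.2 and 48.3 (PSP) and 69.5 and 70.6 (DP), with an interaction of -4.11 (adjusted p = 3.64e-06, limma). GFP single-positive cells were highest and did not overlap with any other population in either gene.

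Schwann cell and nerve genes were less uniform. Of 19 Schwann cell precursor genes, 13 had a negative and 1 a positive interaction, with a median of -2.12 (1.09 in Pdgfrα+ and 3.34 in Pdgfrα- cells). They summed to 889 and 789 (DN), 1033 and 999 (GSP), 173 and 189 (PSP) and 429.6 and 379 (DP), led by *Itga4*, an integrin that blood cells share and the single member with a positive interaction, 4.31 (adjusted p = 7.05e-07, limma). *Ptprz1*, a receptor phosphatase of glia, was at 1.58 and 3.42 (DN), 180.0 and 196 (GSP), 31.9 and 31.9 (PSP) and 109.8 and 93.6 (DP), with effects of 1.64 (adjusted p = 0.00226, limma) in Pdgfrα+ cells and 5.80 in Pdgfrα- cells. Of 15 myelin genes, 1 had a positive and 6 a negative interaction, with a median of -1.29 and sums of 222 and 231 (DN), 1018 and 977 (GSP), 781 and 714 (PSP) and 709.9 and 613 (DP), led by *Pmp22*. Of 7 neuronal genes, 3 had a negative and 0 a positive interaction, with a median of -1.49. Their sums were low, 1.01 and 1.30 (DN), 9.35 and 6.05 (GSP), 27.4 and 25.99 (PSP) and 13.9 and 15.4 (DP), led by *Gap43*, and a further 12 are not in the table. Not in the table are 3 of the fibre, 3 of the Schwann, 2 of the myelin, 1 of the mural, 2 of the endothelial and 10 of the epithelial genes listed. The part of these cells in the GFP effects was not tested.

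Other signalling pathways were spread over several patterns. Of the 35 BMP and TGF-β, 34 Wnt, 16 Notch and 18 FGF genes, 15, 12, 8 and 10 were restricted to Pdgfrα- cells. That pattern held 38.1% of all genes. Of 35 genes of bone morphogenetic protein and TGF-β signalling, 21 had a negative and 4 a positive interaction, with a median of -2.36 (-0.16 in Pdgfrα+ and 1.98 in Pdgfrα- cells). The effect was opposite in 4 (*Gdf6*, *Ltbp3*, *Tgfb1* and *Tgfb2*), and restricted to Pdgfrα+ cells in 4, among them *Bmp8a*, which was higher with GFP, and *Ltbp2* and *Tgfbi*, which were lower. *Bmp4*, a ligand of limb and bone development, was at 0.718 and 3.18 (DN), 82.9 and 75.2 (GSP), 78.5 and 71.4 (PSP) and 62.8 and 62.8 (DP), with an interaction of -5.15 (adjusted p = 3.3e-06, limma), and its exons overlap a transcript on the other strand. Of 34 Wnt genes, 15 had a negative and 0 a positive interaction, with a median of -1.22 (-0.08 in Pdgfrα+ and 1.20 in Pdgfrα- cells). *Sfrp1*, a secreted Wnt antagonist, stood at 1.58 and 1.30 (DN), 38.0 and 31.0 (GSP), 357 and 412 (PSP) and 345 and 381 (DP), with an effect of -0.08 in Pdgfrα+ cells that was not called and an interaction of -3.94 (adjusted p = 1.99e-07, limma).

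Of 16 Notch genes, 9 had a negative and 1 a positive interaction, with a median of -1.47 (0.44 in Pdgfrα+ and 1.97 in Pdgfrα- cells). Of 18 fibroblast growth factor genes, 11 had a negative and 0 a positive interaction, with a median of -1.97 (0.06 in Pdgfrα+ and 1.99 in Pdgfrα- cells). *Fgfr1*, the receptor of most mesenchyme, stood at 7.32 and 9.79 (DN), 327 and 322 (GSP), 383 and 373 (PSP) and 348 and 309 (DP), with an interaction of -5.31 (standard error 0.21, adjusted p = 9.4e-09, limma). *Fgfr1* was low in double-negative cells and alike in the other 3 populations, whose libraries lay between 309 and 383.

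Of 23 immediate-early and heat shock genes, 16 had a negative and 2 a positive interaction, with a median of -1.23 (0.90 in Pdgfrα+ and 2.24 in Pdgfrα- cells). Such genes respond to cell handling, and whether handling differed between the sorted populations was not tested. *Egr1*, an immediate-early transcription factor, stood at 177 and 249 (DN), 3295 and 3811 (GSP), 809 and 478 (PSP) and 930.3 and 831 (DP), with an interaction of -3.57 (adjusted p = 2.75e-06, limma), and its exons overlap a transcript on the other strand. Of 26 nuclear and hormone receptors, 18 had a negative and 2 a positive interaction, with a median of -2.02 (-0.22 in Pdgfrα+ and 1.83 in Pdgfrα- cells). *Ghr*, the growth hormone receptor, was at 8.47 and 5.54 (DN), 85.6 and 79.6 (GSP), 219 and 218 (PSP) and 169 and 188 (DP), with an interaction of -3.70 (adjusted p = 5.02e-07, limma).

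A further set of lists follows. Of 30 secretory pathway genes, 8 had a positive and 8 a negative interaction, with a median of -0.14 (0.48 in Pdgfrα+ and 0.54 in Pdgfrα- cells) that turned positive after median centring. Of 23 chemokine and cytokine genes, 6 had a negative and 0 a positive interaction, with a median of -0.35 (0.15 in Pdgfrα+ and 1.08 in Pdgfrα- cells) that turned positive after median centring and quantile normalization. *Csf1*, the growth factor of macrophages and osteoclast precursors, was at 2.44 and 5.31 (DN), 28.5 and 23.3 (GSP), 137 and 108 (PSP) and 113 and 82.9 (DP), with an interaction of -2.85 (adjusted p = 0.000124, limma). Of 12 complement genes, 5 had a negative and 1 a positive interaction, with a median of -1.23 (-0.25 in Pdgfrα+ and 0.75 in Pdgfrα- cells).

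Of 22 adipogenic and lipid genes, 9 had a negative and 1 a positive interaction, with a median of -0.95 (-0.05 in Pdgfrα+ and 1.14 in Pdgfrα- cells). Of 75 ion channel genes, 26 had a negative and 4 a positive interaction, with a median of -1.14 (-0.08 in Pdgfrα+ and 1.07 in Pdgfrα- cells). *Kcnn4*, a calcium-activated potassium channel that red cells carry, was at 142 and 126 (DN), 1.58 and 1.16 (GSP), 5.42 and 1.93 (PSP) and 2.35 and 1.58 (DP), with an interaction of 5.27 (adjusted p = 1.75e-05, limma). *Kcnn3*, its relative, was at 1.01 and 0.354 (DN), 46.7 and 51.3 (GSP), 14.5 and 9.65 (PSP) and 11.7 and 11.9 (DP), with an interaction of -4.92 (adjusted p = 5.73e-06, limma). The 2 channels were thus high in different Pdgfrα- populations. Of 220 solute carriers, 54 had a positive and 53 a negative interaction, with a median of -0.09 (0.07 in Pdgfrα+ and 0.19 in Pdgfrα- cells) that turned positive after median centring and quantile normalization. *Slc25a37*, which carries iron into mitochondria for haem synthesis, stood at 1495 and 1645 (DN), 25.6 and 24.3 (GSP), 20.5 and 18.3 (PSP) and 20.3 and 27.5 (DP), with an interaction of 6.19 (standard error 0.25, adjusted p = 9.4e-09, limma).

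Promoter windows were described by base composition and simple motifs. RefSeq windows of 300 bases around the gene start were read on GRCm38.p6 for the 9030 of 15880 genes with 1 window. Matches on both strands were counted, and for the TATA box the letters were TATAAA. This motif was found in 11.6% and 15.2% of windows of genes restricted to Pdgfrα+ cells that were higher and lower with GFP. It was found in 7.55% of all windows, in 15.5% of the 97 of opposite genes that were lower with GFP in Pdgfrα+ cells and in 5.88% of the 85 of opposite genes that were higher. The CCAAT box was found in 39.4% of all windows and in 30.9% and 51.8% of these sets, and the GC box, read as GGGCGG, in 64.1%, 60.8% and 75.3%. The median number of CpG was 20 over all windows, 15 in the former set and 24 in the latter. The AP-1 motif, read as TGACTCA, was found in 3.30% of all windows, in 3.53% and 8.25% of the opposite genes that were higher and lower with GFP in Pdgfrα+ cells, and in 4.65% of 43 and 13.0% of 46 windows of genes restricted to Pdgfrα+ cells that were higher and lower. The GATA motif, read as AGATAA, was found in 6.36% of all windows, in 9.41% and 6.19% of the former sets and in 14.0% and 4.35% of the latter. In genes restricted to Pdgfrα- cells, GATA was found in 4.38% of 1895 windows of those higher with GFP and in 7.08% of 1694 windows of those lower, and AP-1 in 3.17% and 2.54%. A match is a run of letters and no evidence of binding, and no difference between sets was tested.

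A window of a pair of genes is printed to show what these matches look like, with TATA, CCAAT and GC boxes on either strand in capitals. *Mstn* (opposite, lower with GFP in Pdgfrα+ cells) is at chr1:53061390-53061689 and *Phospho1* (restricted to Pdgfrα+ cells) at chr11:95824250-95824549, both on the plus strand.
Mstn: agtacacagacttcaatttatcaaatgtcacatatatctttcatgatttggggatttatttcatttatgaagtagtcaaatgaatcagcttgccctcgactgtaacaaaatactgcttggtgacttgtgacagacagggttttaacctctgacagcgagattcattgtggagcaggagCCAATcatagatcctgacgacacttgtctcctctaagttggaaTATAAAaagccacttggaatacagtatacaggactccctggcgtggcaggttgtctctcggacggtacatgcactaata
Phospho1: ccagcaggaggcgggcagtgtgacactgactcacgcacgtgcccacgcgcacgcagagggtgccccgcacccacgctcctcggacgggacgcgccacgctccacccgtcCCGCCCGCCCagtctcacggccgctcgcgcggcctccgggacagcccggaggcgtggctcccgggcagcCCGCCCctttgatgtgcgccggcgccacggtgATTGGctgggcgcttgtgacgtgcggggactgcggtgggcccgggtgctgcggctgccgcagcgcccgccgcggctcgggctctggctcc
The *Mstn* window holds a CCAAT box and then a TATA box before the gene start, and that of *Phospho1* holds GC boxes and a CCAAT box on its other strand.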

How the data were processed

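RNA was measured in 8 libraries, 2 from each of 4 populations sorted from newborn bone marrow stroma. The authors trimmed adaptors with cutadapt, counted with RSEM 1.17 on the transcriptome of NCBIM37 (Ensembl gene-build 65), kept genes over a CPM of 2 in at least 2 samples and normalized the counts with limma's voom. The values as deposited are a signal on a linear scale, each the reads plus 0.5 divided by the library's effective size, on a scale of 1e6. Whole reads were recovered for 100% of values within a tolerance of 0.05. Reads on genes ranged from 3221217 to 5302762, and 3 reads correspond to values of 0.825 to 1.04.

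With R 4.3.3 and limma 3.58.1, log2(value + 1) was fitted with 1 coefficient per population and empirical Bayes moderation with a trend. P-values were adjusted by Benjamini–Hochberg over 15880 genes and called at an adjusted p of at most 0.05. edgeR 4.0.16 on the reads, which called 6644 interactions, voom, and other scalings, filters and thresholds were alternatives. The methods were checked on simulated counts. Replicate numbers were read as shared pools, because the paper describes independent sets of samples from pooled littermates. The labels do not say that all 4 populations of a number came from the same pups. *Xist*, which is expressed in female cells, was 119-fold to 299-fold higher in replicate 2 of each population. The libraries of a population thus differed in the sex of their pups, which does not show that pups were shared. Deviations of the replicates correlated by 0.00433 to 0.0812 between populations over all genes and by 0.0127 to 0.161 over genes with a mean over 10, and the number entered as a block only in an alternative. Gene positions are from GENCODE M1, which matched 15849 genes. Python 3.11.15 with pandas 2.3.3, numpy 2.4.6 and matplotlib 3.10.9 served for tables and plots.

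Named are *Nes* and *Pdgfra*, the 8 genes with the largest absolute interaction per pattern and direction with a mean of at least 10 in the highest population and no overlap of the compared libraries, and in each of 45 gene lists up to 4 called members and the most abundant one. Genes that the paper names for this experiment are left out of these. The comparison and its gene lists were chosen with earlier results of these data known.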

Additional observations from a re-analysis of the deposited data

Results flagged for a closer look

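A difference between groups brought out 5 results, each resting on the test of the interaction itself. The GFP effect differed between Pdgfrα+ and Pdgfrα- cells in 7031 genes. It was called in opposite directions in 135 genes that were higher with GFP in Pdgfrα+ cells and in 181 that were lower there. It was called in Pdgfrα+ cells alone in 170 genes and in Pdgfrα- cells alone in 6044. No explanation was weighed. Double-negative cells, which the latter pattern leans on, had the highest mitochondrial share and the highest erythroid levels of the 4 populations.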

How the results depend on the processing

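The count of called interactions, 7031, stayed within 1.5 times under each alternative, as did those for Pdgfrα- cells, 8527, and for effects restricted to Pdgfrα- cells, 6044. With the replicate block, 7104 interactions, 924 effects in Pdgfrα+ cells and 8581 in Pdgfrα- cells were called. Other counts moved, and the cause was not tested beyond the construction of each alternative.

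At an adjusted p of at most 0.10, 1356 effects were called in Pdgfrα+ cells, 560 genes had opposite effects (250 higher and 310 lower in Pdgfrα+ cells), 265 were restricted to Pdgfrα+ cells and 257 had the same sign. With no mean-variance trend, 532 effects were called in Pdgfrα+ cells, 143 genes were opposite (54 higher and 89 lower) and 100 had the same sign. With a size of at least 1 log2 unit, 185 were opposite (80 higher and 105 lower) and neither effect was called in 708. Genes restricted to Pdgfrα+ cells numbered 89 in edgeR, 97 at a pseudocount of 0.1 and 75 with a mean of at least 10, where neither effect was called in 153. Opposite genes that were lower in Pdgfrα+ cells numbered 117 at a pseudocount of 0.1 and 326 in voom.

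Leaving out each library in turn gave 5941 to 6642 interactions (2542 to 2883 positive, 3373 to 3759 negative), 246 to 1083 effects in Pdgfrα+ cells and 7053 to 8672 in Pdgfrα- cells. Opposite genes numbered 65 to 428 (28 to 134 higher, 34 to 294 lower), genes restricted to Pdgfrα+ cells 54 to 175, to Pdgfrα- cells 5163 to 5859, of the same sign 52 to 206 and with neither effect called 294 to 400. The lone library is assumed to vary like the other populations.

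Of 233 named genes, 227 had a called interaction. All 227 kept its direction under every alternative and 197 also the call. For the effect in Pdgfrα+ cells, 79 of 80 called genes kept the direction and 25 the call, and in Pdgfrα- cells 205 and 186 of 205. The exception in direction was *Col3a1* in Pdgfrα+ cells, 0.0401 after quantile normalization.

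At this depth, genes under 3 reads give no fold. In simulated counts with 2 libraries per population, 4 of 68 interactions of 1 log2 unit were called. There 15680 of 15880 genes had no interaction, which makes the Benjamini–Hochberg cut-off stricter than with the 7031 called in the data. That share therefore does not give the share missed here.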
